A study of Mus musculus with 31 samples.

Results

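The Hedgehog pathway was followed here through 9 genes taken as a fixed list by symbol: the ligand Shh, its receptor Ptch1, the co-receptors Gas1, Boc and Cdon, the decoy receptor Hhip, and the transcription factors Gli1, Gli2 and Gli3. All 9 were found, among 34865 gene identifiers in the bulk RNA-seq table and among 55487 identifiers in the Smart-seq2 table. The study asks about Axin2, a gene that Wnt signals induce and that dampens them, and about stem cells that compete in the embryonic mouse brain. Its bulk libraries came from wild-type mice at embryonic day E10.5, with 3 libraries of dorsal diencephalon and 3 of ventral diencephalon. Its Smart-seq2 libraries (a full-length method for very small inputs) came from medial cortex at E11.5, with 13 libraries labelled Axin2(-/-) and 12 labelled Axin2(+/+). Both cortical genotypes also carried 1 Emx1-cre allele and the MADM cassettes, written MDMD in the genotype labels, and the parents were Emx1-CreERT2::MADM-11::Axin2LacZ/+ mice. MADM (mosaic analysis with double markers) marks mutant and wild-type daughter cells of the same embryo with different colours after Cre recombination, so the wild-type libraries are cells of mosaic embryos and not of untreated animals. Emx1 drives Cre in the dorsal telencephalon, which confines the recombined cells to that lineage. The labels call each cortical library a cell and name no animal, and they do not say whether the 3 libraries of a diencephalic region came from separate embryos. The p-values below therefore reflect how far these libraries differ among themselves, and that spread may be technical.

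Hedgehog ligands are secreted proteins that spread from a source and act on cells at a distance. Without ligand, Ptch1 holds the membrane protein Smo inactive, and Gli3 and, to a lesser degree, Gli2 are cut into repressors. Ligand bound to Ptch1 together with a co-receptor (Gas1, Boc or Cdon) releases Smo at the primary cilium, and full-length Gli proteins then activate target genes. Ptch1, Hhip and Gli1 are themselves induced by the signal and are used as its readouts, while Gas1, Boc and Cdon are known to be repressed where signalling is strong. In the early diencephalon, Shh is made in the ventral midline and later in the zona limitans intrathalamica, a boundary within the diencephalon. In the hypothalamus Shh is switched off at the midline and kept on at its flanks.

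The 3 Gli genes are paralogs that share their DNA-binding zinc fingers, so their reads could in principle be mixed up. The stretch of 90 coding bases in which they are most alike is shown for that reason, read from the GENCODE M21 transcripts. It lies in the zinc finger region and spans an intron. Capitals mark bases that differ from Gli2, and each stretch is written 5′ to 3′ on the coding strand.
Gli2: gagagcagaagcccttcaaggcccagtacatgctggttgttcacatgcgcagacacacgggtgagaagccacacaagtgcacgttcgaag
Gli3: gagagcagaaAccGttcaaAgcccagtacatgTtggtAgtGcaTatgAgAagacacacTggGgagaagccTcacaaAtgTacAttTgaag
Gli1: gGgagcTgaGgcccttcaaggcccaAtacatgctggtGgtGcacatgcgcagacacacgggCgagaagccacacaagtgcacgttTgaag
On GRCm38 these stretches run over chr1:118844509-118845999 on the minus strand for Gli2 (exons 10 to 11), chr13:15713566-15714956 on the plus strand for Gli3 (exons 11 to 12) and chr10:127334357-127336045 on the minus strand for Gli1 (exons 9 to 10). The Gli3 stretch shared 82.2% of its bases with Gli2, with a longest identical run of 12 bases, and the Gli1 stretch shared 91.1%, with a run of 23 bases. None of the 31-base words of the Gli2 transcripts occurred in another gene, and the genes that shared words with Gli1 or Gli3 did not include another Gli gene.

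RefSeq promoter windows (GRCm38.p6, from 250 bases before to 50 bases after the start site) were matched for 6 of the 9 genes, and not for Shh, Gli1 and Boc. The Gli-binding consensus GACCACCCA was searched on both strands and occurred in 0 of the 6 windows and in 0.253% of all 32851 windows. Its core ACCACCC, which lies inside the consensus, occurred in 1 of the 6, that of Gli2, and in 4.61% of all windows. Shown are the Gli2 window, with its only core match in capitals as it reads on the gene's strand (the reverse complement, 205 bases before the start site), and the windows of Ptch1 and Hhip, both known targets of the pathway, which hold no match to these letters.
Gli2: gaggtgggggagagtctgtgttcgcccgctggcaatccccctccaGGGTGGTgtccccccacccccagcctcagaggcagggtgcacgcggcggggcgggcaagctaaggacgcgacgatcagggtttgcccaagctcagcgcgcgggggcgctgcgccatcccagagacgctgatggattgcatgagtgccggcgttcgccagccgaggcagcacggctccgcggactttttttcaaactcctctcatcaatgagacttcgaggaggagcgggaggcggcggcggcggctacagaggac
Ptch1: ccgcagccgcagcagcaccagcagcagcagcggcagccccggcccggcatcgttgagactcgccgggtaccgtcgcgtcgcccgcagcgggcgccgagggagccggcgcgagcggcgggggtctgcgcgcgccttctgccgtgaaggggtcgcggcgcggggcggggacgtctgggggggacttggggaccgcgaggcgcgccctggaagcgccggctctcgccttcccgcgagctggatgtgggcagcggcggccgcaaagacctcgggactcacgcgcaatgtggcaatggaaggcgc
Hhip: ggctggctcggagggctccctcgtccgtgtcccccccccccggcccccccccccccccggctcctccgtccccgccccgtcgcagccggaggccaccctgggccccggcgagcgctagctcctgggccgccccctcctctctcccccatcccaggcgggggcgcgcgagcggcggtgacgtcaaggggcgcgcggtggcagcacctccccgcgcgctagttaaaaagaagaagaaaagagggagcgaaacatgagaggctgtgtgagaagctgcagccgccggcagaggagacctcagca
The windows lie at chr1:119053570-119053869 for Gli2, chr13:63565686-63565985 for Ptch1 and chr8:80057959-80058258 for Hhip, all on the minus strand. The annotated Ptch1 gene begins further upstream, at base 63573598, so its window surrounds a start site inside the gene. Other start sites and more distant sequence were not searched. A match is a description of the letters only.

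The bulk libraries held between 17604166 and 20838002 counts each, and depth did not separate the regions. Ventral library 3 stood apart from the other two ventral libraries, with correlations of log2 CPM of 0.925 and 0.914 against 0.987 between libraries 1 and 2. Dorsal library 3 also stood apart from the other two dorsal libraries, with 0.962 and 0.959 against 0.995. Without ventral library 3, the calls of the 9 genes were those with all 6 libraries plus Hhip, and without dorsal library 3 they were those with all 6. All 10 hypothalamic markers on a fixed list were higher in ventral libraries, and all 10 thalamic markers were higher in dorsal libraries. The dorsal libraries also held markers of telencephalic pallium, which neighbours the dorsal diencephalon, with 8 of 10 higher in dorsal and a summed level of 2161 to 2479 CPM in dorsal against 102 to 113 CPM in ventral libraries. Transcripts of adult intestine and exocrine pancreas, which are not known products of the diencephalon, were higher in ventral libraries for 24 of 24 genes tested and took 0.00124% to 0.00153% of dorsal counts but 0.288% to 1.09% of ventral counts. Of 15 cell cycle genes, 13 were higher in dorsal libraries, with a summed level of 1303 to 1640 CPM in dorsal against 339 to 539 CPM in ventral libraries. Of 10 neural progenitor markers, 5 were higher in dorsal and 0 in ventral libraries (summed 867 to 1106 CPM in dorsal against 645 to 671 CPM in ventral). Of 10 neuron markers, 1 was higher in dorsal (Dcx) and 3 in ventral libraries (Gap43, Stmn2 and Snap25). By the same rule, 7.14% of all 14701 genes tested were higher in dorsal and 9.54% in ventral libraries. The 1 neuron marker called in dorsal was thus near the share of all genes. Of 6 tested markers of surface ectoderm and pituitary, 5 were higher in ventral libraries (Krt8, Krt18, Krt19, Cdh1 and Epcam; summed 21 to 23.4 CPM in dorsal against 97.6 to 299 CPM in ventral). The part of these differences in tissue content in the results on the Hedgehog genes was not tested.

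In the diencephalon the ligand and its co-receptors lay on opposite sides. Shh was higher in ventral libraries, while Gas1, Boc, Cdon, Gli2 and Gli3 were higher in dorsal libraries. Ptch1 and Hhip did not pass the test, and Gli1 was too low to be tested. Thus 8 of the 9 genes averaged 1 CPM or more (counts per 1000000 counts, before scaling) and entered the test. The CPM values printed for each gene are after TMM scaling between libraries. Of the 8 genes, 5 were higher in dorsal, where 7.14% of all 14701 genes tested were called. In ventral, 1 was higher, where 9.54% were called (edgeR's quasi-likelihood test, Benjamini-Hochberg adjusted p under 0.05). In bulk tissue, fewer cells of a type and less RNA per cell cannot be told apart.

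**Figure D1:**
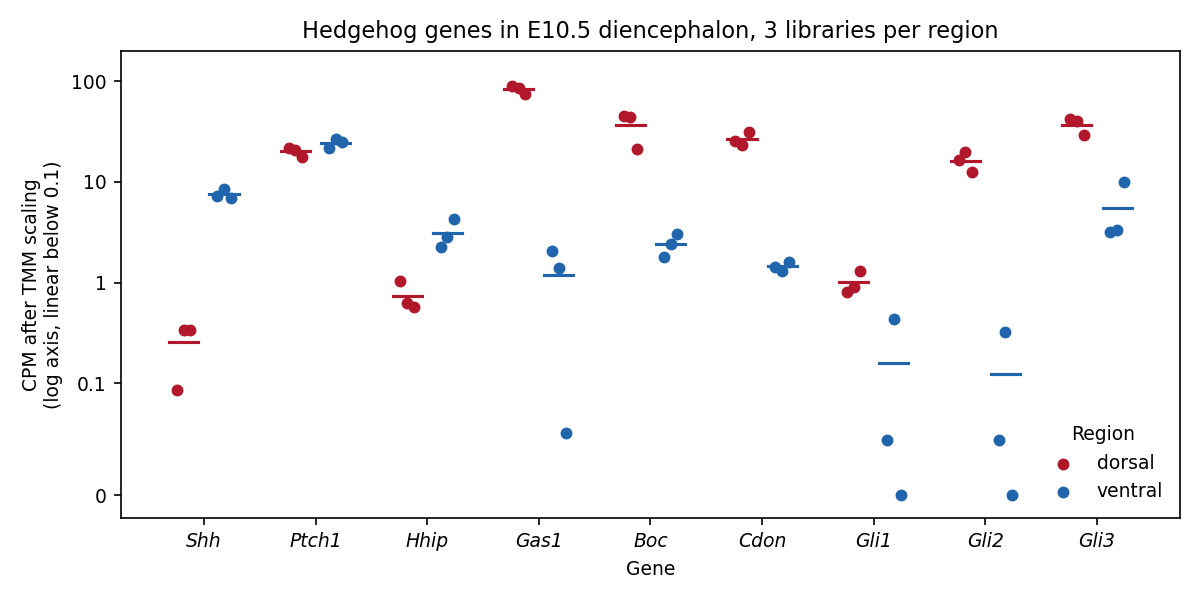
CPM after TMM scaling (log axis, linear below 0.1) of the 9 Hedgehog genes in each of 3 dorsal libraries (red, left of each pair) and 3 ventral libraries (blue, right); bars are means. The dorsal and ventral points share a range for Ptch1 alone. Shh and Hhip are higher in every ventral library, as are 20% of all genes tested. The other 6 genes are higher in every dorsal library, as are 19% of all genes tested.

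Shh (Sonic hedgehog, the ligand; ENSMUSG00000002633, chr5:28456815-28467256, minus strand) had 0.0942, 0.337 and 0.341 CPM in dorsal libraries 1 to 3, against 7.27, 8.46 and 6.91 CPM in ventral libraries 1 to 3. Every ventral library was above every dorsal one, and the dorsal values came from only 2, 7 and 6 counts. Shh was 29.3-fold higher in ventral libraries, with a log2 fold change (dorsal over ventral) of -4.85 ± 0.63 (SE) and an adjusted p of 0.00186 in edgeR's quasi-likelihood test. With the intestine and pancreas genes left out before scaling, the log2 fold change of Shh was -4.85 and its adjusted p 0.00191 in the same test. This changes the scaling only, and the part of such tissue in the Shh counts was not tested. Parts of the Shh exons overlap the genes 9530036O11Rik and Gm26894 on the opposite strand. Whether reads were counted by strand is not given in the sources used here, so reads of these antisense genes cannot be told apart from those of Shh, and 25.5% of its 31-base words occur in other genes. The same limit touches Gas1 (Gm48488, 18.2% of words), Gli1 (Arhgap9 and Gm47200, 5.30%), Gli3 (Gm6556, 1.53%) and Hhip (Gm27820, 1.60%).

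Ptch1, the receptor and a target of the pathway (ENSMUSG00000021466, chr13:63508328-63573598, minus strand), had 21.5, 20.9 and 17.8 CPM in dorsal libraries, against 21.5, 26.6 and 24.7 CPM in ventral libraries. The 2 regions overlapped, and ventral library 1 lay level with dorsal library 1. The log2 fold change of Ptch1 was -0.27 ± 0.21 (SE), with a 95% interval of -0.77 to 0.22 and an adjusted p of 0.436 (edgeR's quasi-likelihood test). The interval leaves room for a ventral level up to 0.77 log2 units above the dorsal one, and Ptch1 passed the test in 0 of 14 settings tried.

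Hhip, a membrane protein that binds Hedgehog ligands and withholds them from Ptch1 (ENSMUSG00000064325, chr8:79965851-80058006, minus strand), had 1.04, 0.626 and 0.568 CPM in dorsal libraries, against 2.27, 2.82 and 4.24 CPM in ventral libraries. Every ventral library was above every dorsal one, as for 20% of all genes tested. The log2 fold change of Hhip was -2.05 ± 0.62 (SE), with a 95% interval of -3.48 to -0.63 and an adjusted p of 0.0594 in edgeR's quasi-likelihood test, so it missed the threshold. It passed in 3 of the other settings, with an adjusted p of 0.0129 in DESeq2, of 0.0425 in limma, and of 0.0435 in edgeR without ventral library 3.

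The 3 co-receptors were all higher in dorsal libraries. Gas1, a membrane-anchored protein that binds the ligand (ENSMUSG00000052957, chr13:60174405-60177365, minus strand), had 89.5, 86.3 and 73.7 CPM in dorsal libraries, against 2.08, 1.41 and 0.0558 CPM in ventral libraries. The ventral libraries differed among themselves, with 42, 26 and 1 counts, yet all lay far below the lowest dorsal library. Gas1 was 70.5-fold higher in dorsal libraries, with a log2 fold change of 6.11 ± 0.73 (SE) and an adjusted p of 0.00125 in edgeR's quasi-likelihood test. Without ventral library 1, the log2 fold change was 6.80, with an adjusted p of 0.00520 in the same test, and without ventral library 3 it was 5.53.

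Boc and Cdon are related cell-surface proteins of the immunoglobulin superfamily that bind Shh and Ptch1. Boc (ENSMUSG00000022687, chr16:44485049-44558897, minus strand) had 45.1, 43.8 and 21.4 CPM in dorsal libraries, against 1.78, 2.44 and 3.01 CPM in ventral libraries. Dorsal library 3 held less Boc than the other two dorsal libraries and still lay above every ventral library. Boc was 15.3-fold higher in dorsal libraries, with a log2 fold change of 3.93 ± 0.39 (SE) and an adjusted p of 0.000565 in edgeR's quasi-likelihood test. Cdon (ENSMUSG00000038119, chr9:35421128-35507652, plus strand) had 25.2, 23.4 and 31.6 CPM in dorsal libraries, against 1.43, 1.30 and 1.62 CPM in ventral libraries. Both regions were tight, and they did not overlap. Cdon was 18.4-fold higher in dorsal libraries, with a log2 fold change of 4.20 ± 0.30 (SE) and an adjusted p of 0.000124 in the same test, the smallest of the 8 genes tested. Boc and Cdon shared 1 word of 31 bases.

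The Gli factors were also higher in dorsal libraries where they could be tested. Gli2, the main activator of the family (ENSMUSG00000048402, chr1:118834132-119053619, minus strand), had 16.7, 19.6 and 12.5 CPM in dorsal libraries, against 0.0494, 0.325 and 0 CPM in ventral libraries. The ventral values came from 1, 6 and 0 counts, and the count of 0 in ventral library 3 allows up to 0.167 CPM (3 counts; counting error only). Gli2 was 130-fold higher in dorsal libraries, with a log2 fold change of 6.96 ± 0.86 (SE) and an adjusted p of 0.00148 in edgeR's quasi-likelihood test. With so few ventral counts, the size of the fold change depends on single libraries: it was 8.97 on the log2 scale without ventral library 2, with an adjusted p of 0.000910 in the same test, and 6.40 without ventral library 3.

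Gli3, the main repressor of the family (ENSMUSG00000021318, chr13:15463235-15730026, plus strand), had 42.1, 40.1 and 29.0 CPM in dorsal libraries, against 3.21, 3.36 and 9.87 CPM in ventral libraries. Ventral library 3 held more Gli3 than the other two ventral libraries but less than any dorsal library. Gli3 was 6.76-fold higher in dorsal libraries, with a log2 fold change of 2.76 ± 0.47 (SE) and an adjusted p of 0.00646 in edgeR's quasi-likelihood test, and without ventral library 3 the log2 fold change was 3.46 with an adjusted p of 0.000206.

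Gli1, an activator whose transcription is itself a readout of the signal (ENSMUSG00000025407, chr10:127329882-127341974, minus strand), had 17, 19 and 23 counts in dorsal libraries, against 1, 8 and 0 counts in ventral libraries. These counts correspond to 0.800, 0.915 and 1.31 CPM in dorsal and 0.0494, 0.434 and 0 CPM in ventral libraries, and every dorsal library was above every ventral one, as for 19% of all genes tested. Its mean over the 6 libraries was under 1 CPM, so Gli1 was not tested. When no minimum was set, its log2 fold change was 2.60 with an adjusted p of 0.231 (edgeR's quasi-likelihood test). Gli1 shares exon bases with Arhgap9 on the opposite strand, which held 5 counts over the dorsal and 17 over the ventral libraries.

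Levels of different genes were compared per exon length, in TPM (transcripts per 1000000). In dorsal libraries the order of mean TPM was Gas1 at 90.6 ± 17.2, Boc at 27.1 ± 11.6, Gli3 at 12.5 ± 3.43, Cdon at 11 ± 0.789, Gli2 at 7.69 ± 2.23 and Ptch1 at 4.56 ± 0.863 (SD, n = 3 each). Gli1 at 0.635 ± 0.101, Shh at 0.283 ± 0.150 and Hhip at 0.266 ± 0.111 TPM followed. The ranges of Boc and Gli3, of Gli3 and both Cdon and Gli2, and of Shh and Hhip overlapped, so their order was not resolved. In ventral libraries Shh came first at 7.02 ± 0.320 TPM, followed by Ptch1 at 4.55 ± 0.541, Gli3 at 1.57 ± 1.22, Boc at 1.45 ± 0.462, Gas1 at 1.02 ± 0.902, Hhip at 0.925 ± 0.373, Cdon at 0.504 ± 0.0960, Gli1 at 0.0801 ± 0.117 and Gli2 at 0.0453 ± 0.0628 TPM. There the ranges of Gli3, Boc, Gas1 and Hhip all overlapped one another, as did those of Gli1 and Gli2, and the wide range of Gas1 also overlapped those of Cdon, Gli1 and Gli2. Shh was thus among the lowest of the 9 genes in dorsal libraries and the highest in ventral libraries, while Ptch1 kept nearly the same TPM in both. These TPM were not scaled between libraries, and the scaled CPM of Ptch1 averaged 20.1 in dorsal and 24.3 in ventral libraries. With the length of the longest transcript in place of the exon union, Shh at 5.51 ± 0.306 and Ptch1 at 4.87 ± 0.545 TPM overlapped in ventral libraries, and Gli2 and Ptch1 overlapped in dorsal libraries.

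**Figure D2:**
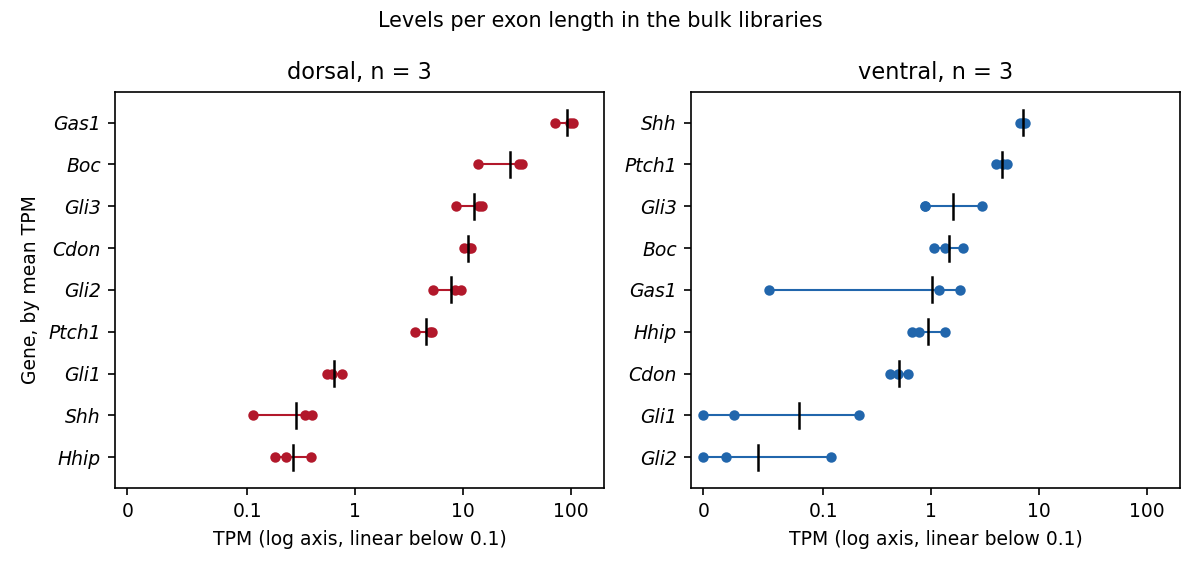
TPM per exon length (log axis, linear below 0.1) of the 9 genes in dorsal (left) and ventral (right) libraries, ordered by the mean in each region; points are the 3 libraries, coloured lines their range and black ticks the mean. Gas1 leads in dorsal at 90.6 TPM and Shh in ventral at 7.02 TPM, and Ptch1 stands at 4.56 TPM in dorsal and 4.55 TPM in ventral. These TPM are not scaled between libraries.

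Ratios within a library, which do not depend on scaling, were compared for 6 pairs of genes on counts per kilobase with 1 count added. With 3 libraries against 3, the smallest p that the exact permutation test can give is 0.1, so none of the 6 could pass 0.05. Gli2 relative to Gli3 had log2 ratios of -0.85, -0.55 and -0.72 in dorsal libraries, against -4.56, -2.69 and -6.99 in ventral libraries. The regions did not overlap, and the difference of mean log2 ratios was 4.04 (dorsal minus ventral; exact two-sided permutation p = 0.1, 0.15 adjusted over the 6 ratios). The size of this difference rested on single ventral libraries, at 2.92 without ventral library 3, where Gli2 had 0 counts, and 5.07 without ventral library 2. In dorsal libraries Gli2 was thus close to Gli3 per kilobase, and in ventral libraries far below it.

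Gas1 relative to Cdon differed by 2.73 (log2, dorsal minus ventral), Ptch1 relative to Gli1 by -3.17 and Hhip relative to Ptch1 by -1.72, each with an exact two-sided permutation p of 0.1 (0.15 adjusted). The Gas1 to Cdon difference rested on the single Gas1 count of ventral library 3 for much of its size, and was 1.33 without that library; leaving out either other ventral library gave 3.54 and 3.33. The Ptch1 to Gli1 difference was -2.49 without ventral library 3 and -4.01 without ventral library 2. Boc relative to Cdon had log2 ratios of 1.63, 1.69 and 0.23 in dorsal libraries, against 1.10, 1.67 and 1.67 in ventral libraries. These overlapped, with a difference of -0.29 (exact two-sided permutation p = 0.7), which was 0.18 without dorsal library 3. Gli1 relative to Gli3 differed by -0.03 (exact two-sided permutation p = 1), and its sign changed with the count added and with the library left out.

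Related lists are described by their counts, beside the 7.14% of all genes tested that were higher in dorsal and the 9.54% higher in ventral libraries; differences between lists were not tested. Of 10 tested genes for other ligands, their acylation, release and spread, 1 was higher in dorsal and 1 in ventral libraries, about the share of all genes, with a median log2 fold change of 0.15 against 0.01 for all genes tested. Sulf1, an extracellular enzyme that removes sulfate groups from heparan sulfate and thereby alters how ligands are held, had 5.70, 5.73 and 3.63 CPM in dorsal libraries, against 71.9, 60.0 and 59.5 CPM in ventral libraries. The regions were far apart, with a log2 fold change of -3.66 ± 0.26 (SE) and an adjusted p of 0.000119 (edgeR's quasi-likelihood test). Scube1, a secreted protein of the family that helps release the lipid-modified ligand, was at 32.8 ± 5.96 CPM in dorsal tissue, against 18.4 ± 1.22 CPM in ventral tissue (SD, n = 3 each). Its log2 fold change was 0.83 with an adjusted p of 0.0386 in the same test, a call that was lost without dorsal library 1 or 2 or ventral library 1 or 2 (adjusted p = 0.172, 0.171, 0.117 and 0.108) and with no minimum on counts (0.0641). The other ligands Ihh and Dhh were under 1 CPM on average and were not tested.

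Of 24 genes for signal transduction and Gli processing, 2 were higher in dorsal and 1 in ventral libraries. These counts were near or below the 7.14% and 9.54% of all genes, and the median log2 fold change was 0.24. At an unadjusted p under 0.05 (edgeR's quasi-likelihood test), 7 were higher in dorsal and 2 in ventral libraries. The share of all genes at that cutoff is not given here. Smo, the transducer that Ptch1 holds in check, had 47.6, 52.3 and 41.1 CPM in dorsal libraries, against 23.4, 26.2 and 26.3 CPM in ventral libraries, with no overlap. Its log2 fold change was 0.89 ± 0.19 (SE) with an adjusted p of 0.0157 (edgeR's quasi-likelihood test), and the call was lost without dorsal library 1 or 2 (0.0830 and 0.0890) or ventral library 1 or 2 (0.0797 and 0.0600). Evc2, a ciliary protein that acts with Smo, was at 8.36 ± 0.391 CPM in dorsal tissue, against 0.945 ± 0.783 CPM in ventral tissue (SD, n = 3 each). Its log2 fold change was 3.13 with an adjusted p of 0.0455 in the same test, and without any 1 library other than ventral library 3 the adjusted p lay between 0.0860 and 0.124. Prkar1a, a regulatory subunit of protein kinase A, which restrains Gli activation, was at 687 ± 82.0 CPM in dorsal tissue, against 970 ± 45.8 CPM in ventral tissue. Its log2 fold change was -0.50 with an adjusted p of 0.0485 in the same test, and the call was lost without dorsal library 1 or 2 or ventral library 1 or 2 (0.125, 0.0920, 0.178 and 0.133), with library totals in place of TMM (0.0687) and with no minimum on counts (0.122). Of these 24 genes, 7 were higher in dorsal without ventral library 3 and 4 without dorsal library 3. When any 1 of the other 4 libraries was left out, 0 were. Calls over all genes shifted as well, from 498 to 1695 higher in dorsal with 1 library left out, against 1050 with every library. Such shifts were therefore not limited to this list. Sufu and Kif7, which hold Gli proteins in the cytoplasm and cilium, did not pass, with log2 fold changes of 0.83 (adjusted p = 0.127) and 1.13 (adjusted p = 0.181) in the same test.

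Of 29 tested genes of intraflagellar transport and the ciliary transition zone, 0 passed in either direction with edgeR's quasi-likelihood test. At an unadjusted p under 0.05, 1 was higher in dorsal and 3 in ventral libraries. DESeq2 called 1 higher in dorsal and 3 higher in ventral libraries, and limma called 0 in either direction. The shares of all genes under these other rules are not given here, so these counts cannot be set against them. Their median log2 fold change was -0.12. The 2 with the highest means were Kif3a, a kinesin motor of the cilium, at 175 ± 6.12 CPM in dorsal tissue, against 218 ± 28.8 CPM in ventral tissue, and Ift27, a small GTPase of the transport particle, at 60.9 to 79.7 CPM in dorsal tissue, against 56.9 to 106 CPM in ventral tissue. The log2 fold change of Kif3a was -0.32 and that of Ift27 -0.19, which turned to 0.07 without ventral library 3.

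Of 9 tested ventral genes that need Hedgehog signalling in the neural tube, 4 were higher in ventral and 1 in dorsal libraries, with a median log2 fold change of -1.76. Nkx2-1 and Nkx2-4 are also on the list of hypothalamic markers described above, so these lists overlap. Nkx2-1, a homeobox gene that specifies the hypothalamus, had 10.8, 10.3 and 8.40 CPM in dorsal libraries, against 168, 158 and 290 CPM in ventral libraries. Its log2 fold change was -4.38 with an adjusted p of 0.000112 (edgeR's quasi-likelihood test). The related Nkx2-4 was at 4.92 ± 2.02 CPM in dorsal tissue, against 97.0 ± 18.7 CPM in ventral tissue, and Spon1, a secreted floor plate protein, at 9.96 ± 1.99 CPM in dorsal tissue, against 65.2 ± 9.79 CPM in ventral tissue (SD, n = 3 each). Nkx2-2, which marks cells near the ventral midline, had 7.16, 6.16 and 5.62 CPM in dorsal libraries, against 22.5, 20.7 and 70.5 CPM in ventral libraries. Ventral library 3 was the high one, and the log2 fold change of Nkx2-2 was -2.58 (adjusted p = 0.0107) with it and -1.80 (adjusted p = 0.00145) without it in the same test. Foxa2, the floor plate factor, was under 1 CPM on average and was not tested.

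Of 10 tested genes that Hedgehog signalling is known to restrict to dorsal or lateral positions, 8 were higher in dorsal and 1 in ventral libraries, with a median log2 fold change of 3.42. Several of these genes also mark pallium, thalamus or progenitors, so the list overlaps the marker lists described above. Pax6, a homeobox gene of dorsal forebrain progenitors, had 87.4, 84.7 and 98.4 CPM in dorsal libraries, against 5.49, 4.82 and 4.13 CPM in ventral libraries. Its log2 fold change was 4.22 with an adjusted p of 5.25e-05 (edgeR's quasi-likelihood test). Emx1, a pallial gene, had 1572 counts over the dorsal libraries and 1 count over the ventral libraries, so no fold is given; its adjusted p was 0.000102 in the same test. Zic2, a zinc finger gene of the dorsal midline, was at 4.13 ± 0.627 CPM in dorsal tissue, against 0.103 ± 0.0991 CPM in ventral tissue, with a log2 fold change of 5.22, which was 6.06 without ventral library 1. Irx3 was at 9.69 ± 3.46 CPM in dorsal tissue, against 0.604 ± 0.523 CPM in ventral tissue, with a log2 fold change of 3.98 and an adjusted p of 0.0302 in the same test; without any 1 library other than ventral library 3 its adjusted p lay between 0.0684 and 0.0846. Dbx1, which marks progenitors at intermediate positions, was the exception, at 14.8 ± 1.93 CPM in dorsal tissue, against 42.2 ± 4.10 CPM in ventral tissue (SD, n = 3 each), with a log2 fold change of -1.51 and an adjusted p of 0.00243.

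Of 11 tested genes that respond to Hedgehog or Gli factors in some tissue, 6 were higher in dorsal and 0 in ventral libraries with edgeR, with a median log2 fold change of 0.83. In ventral, 0 passed at an unadjusted p under 0.05, and 0 with DESeq2 or limma. Sall1, a zinc finger gene, was at 32.4 ± 5.52 CPM in dorsal tissue, against 2.45 ± 1.69 CPM in ventral tissue, with a log2 fold change of 3.72 and an adjusted p of 0.00563 (edgeR's quasi-likelihood test). The other three named here belong to the cell cycle: Foxm1 was at 45.7 ± 15 CPM in dorsal tissue, against 5.82 ± 3.91 CPM in ventral tissue, Cdc25b at 47.1 ± 15.1 and 11 ± 6.40 CPM, and Ccnd2 at 396 ± 65.8 and 109 ± 7.13 CPM (SD, n = 3 each). The Cdc25b call (adjusted p = 0.0296 in the same test) was lost without dorsal library 1 or 2 (0.0989 and 0.0850) or ventral library 1 or 2 (0.0602 and 0.0603). These genes moved with the cell cycle markers, 13 of 15 of which were higher in dorsal libraries, and the part of that difference in these results was not tested. Ccnd1 and Hes1, other response genes, did not pass, with log2 fold changes of 0.47 (adjusted p = 0.253) and 0.68 (adjusted p = 0.190).

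Axin2, the gene of the study, averaged 13.2 ± 5.22 CPM in dorsal libraries, against 3.12 ± 1.14 CPM in ventral ones (SD, n = 3 each), with an adjusted p of 0.0175 in edgeR's quasi-likelihood test. That call was lost without dorsal library 1 (0.0635) or ventral library 1 or 2 (0.0765 and 0.0661).

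**Figure D3:**
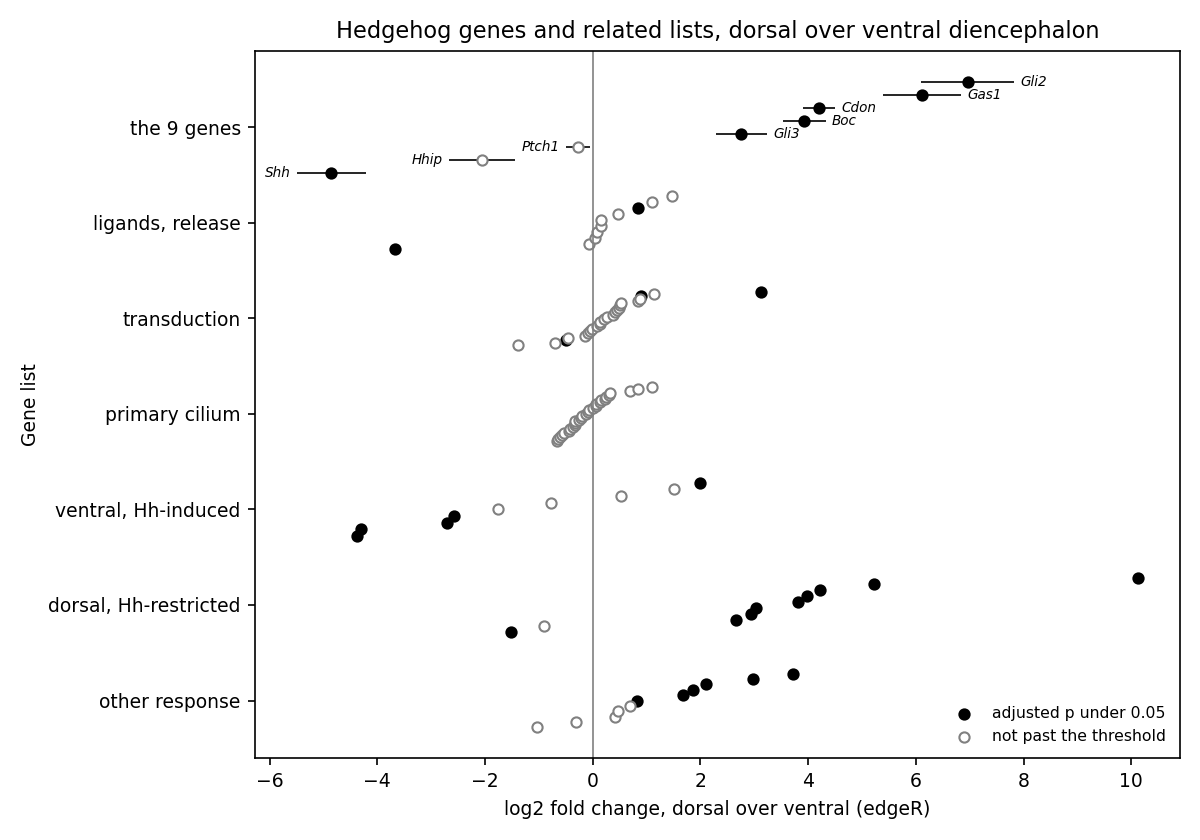
Log2 fold change (dorsal over ventral, edgeR) of each tested gene in the 9 Hedgehog genes and 6 related lists; filled points had an adjusted p under 0.05, and error bars on the 9 genes are standard errors. The 8 tested Hedgehog genes run from -4.85 (Shh) to 6.96 (Gli2), while the ciliary genes lie around 0 with none past the threshold.

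In the E11.5 medial cortex the comparison of Axin2-null with wild-type libraries asks how loss of Axin2 goes with other genes of the same cells. Since the labels name no animal, each genotype counts as 1 sample, no test was made, and all differences describe these libraries. The depth of these libraries is unknown, because TPM does not keep it. At 1 TPM or more, 7863 to 11852 genes were detected in null libraries and 8693 to 12209 in wild-type libraries. Axin2 itself ran from 0 to 22.4 TPM with a median of 3.28 TPM in null libraries, and from 4.32 to 35.9 TPM with a median of 13.2 TPM in wild-type libraries. The genotypes overlapped, and 3 of the 13 null libraries lay above the wild-type median. The labels do not say which part of the gene the LacZ allele removes, so transcript from the rest of the gene cannot be set apart.

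The cortical libraries held the co-receptors and Gli2 and Gli3, while Shh was listed at 0 in all 25 libraries. Of the other ligands, Ihh was also listed at 0 in all, and Dhh was above 0 in 1 wild-type library, at 2.98 TPM. Hhip was above 0 in 2 null libraries, with at most 0.12 TPM, and in 0 wild-type libraries. Gli1 reached 1 TPM in 0 of 13 null libraries (exact 95% binomial interval 0% to 24.7%) and in 1 of 12 wild-type libraries (0.211% to 38.5%). Ptch1 reached 1 TPM in 2 of 13 null libraries (1.92% to 45.4%) and in 4 of 12 wild-type libraries (9.92% to 65.1%), with highest values of 2.02 TPM in null and 12.1 TPM in wild-type libraries. Thus Shh and the genes used as readouts of the signal were at or near 0 in most libraries of both genotypes. These intervals treat the libraries of a genotype as independent draws, which the labels do not establish, and they do not cover differences between animals. A 0 in such a library may be a missed transcript.

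Gas1 had the highest mean TPM of the 9 genes in both genotypes and the widest spread. It ran from 5.42 to 178 TPM with a median of 14.3 TPM in null libraries, and from 4.31 to 146 TPM with a median of 31.7 TPM in wild-type libraries. The genotypes overlapped over nearly their whole range, and the mean of log2(TPM + 1) differed by -0.74 (null minus wild type). The table lists its columns numbered 1 to 7 in each genotype first and those numbered 8 and above after them, and the medians of Gas1 were higher in the later columns of both. Among null libraries the sets overlapped, with at least 14.1 TPM in those numbered 8 and above and up to 26.6 TPM in those numbered 1 to 7. Among wild-type libraries, those numbered 8 and above had at least 79.4 TPM and those numbered 1 to 7 at most 32.6 TPM. The difference between genotypes was -0.10 within numbers 1 to 7 (medians of 11.4 TPM in null and 11.6 TPM in wild-type libraries) and -1.79 within numbers 8 and above (medians of 25.3 TPM in null and 104 TPM in wild-type libraries). This division was chosen after the values were seen, and nothing in the labels says what the numbers stand for.

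Boc ran from 0 to 14.8 TPM with a median of 7.66 TPM in null libraries, and from 2.45 to 20.3 TPM with a median of 11.1 TPM in wild-type libraries. The ranges overlapped, and 3 wild-type libraries lay above every null library. Its difference of mean log2(TPM + 1) was -0.78, with -0.46 within numbers 1 to 7 and -1.21 within numbers 8 and above. Cdon ran from 0.28 to 22.6 TPM with a median of 4.95 TPM in null libraries, and from 0 to 49.7 TPM with a median of 5.31 TPM in wild-type libraries. The medians of Cdon were close and the difference of mean log2(TPM + 1) was -0.39, with 0.15 within numbers 1 to 7 and -1.0 within numbers 8 and above. It was -0.091 without the library with the fewest genes in each genotype, which in wild type was the one with the highest Cdon. All 3 co-receptors together reached 1 TPM in 11 of 13 null libraries and in 10 of 12 wild-type libraries.

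Gli2 ran from 0 to 12.8 TPM with a median of 4.07 TPM in null libraries, and from 0.70 to 29.1 TPM with a median of 8.24 TPM in wild-type libraries. Only 2 null libraries lay above the wild-type median, and 9 of 12 wild-type libraries lay above the null median. The difference of mean log2(TPM + 1) was -0.82, with -0.84 within numbers 1 to 7 and -0.80 within numbers 8 and above, and it was -0.51 without the library with the fewest genes in each genotype. Gli3 ran from 4.61 to 20.5 TPM with a median of 9.62 TPM in null libraries and from 2.97 to 23.1 TPM with a median of 13.9 TPM in wild-type libraries. It reached 1 TPM in all 25 libraries, and its difference of mean log2(TPM + 1) was -0.29. Gli2 and Gli3 reached 1 TPM together in 11 of 13 null and 11 of 12 wild-type libraries.

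**Figure D4:**
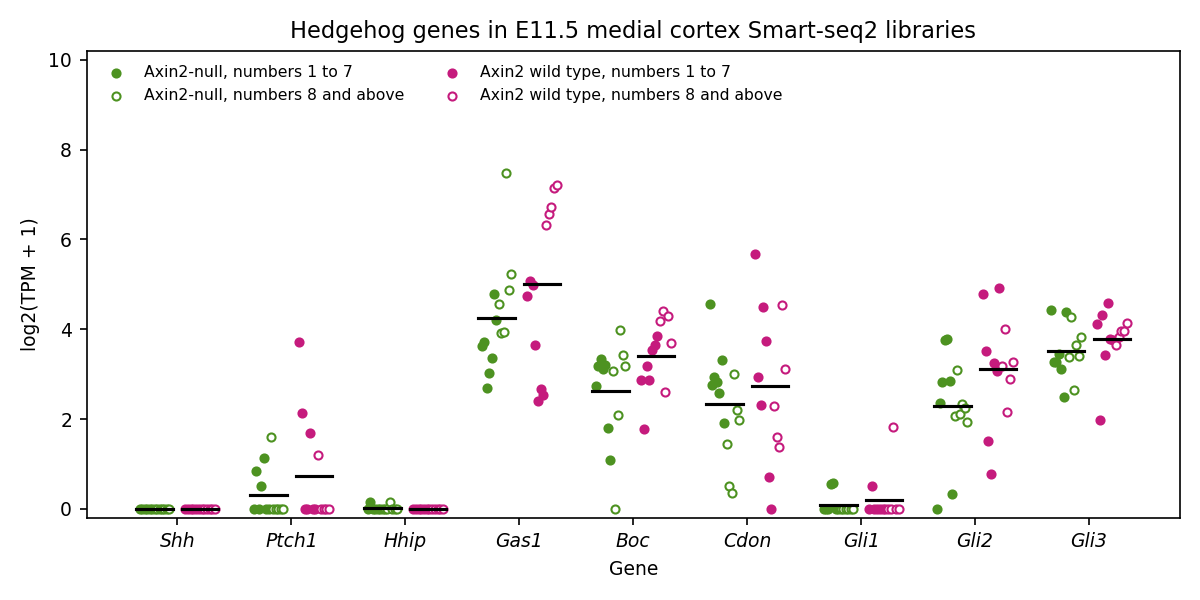
log2(TPM + 1) of the 9 genes in 13 Axin2-null libraries (green, left of each pair) and 12 wild-type libraries (magenta, right); filled points are libraries numbered 1 to 7, open points those numbered 8 and above, and bars are means. Shh is at 0 in all 25 libraries, and the open wild-type points of Gas1 lie above the filled ones.

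The 5 Hedgehog genes that averaged 1 TPM or more (Gas1, Boc, Cdon, Gli2 and Gli3) were all lower on average in null libraries, but so were most genes. The median difference over 13680 genes was -0.22, and 8.14% of genes were lower in null by at least 1 on the log2(TPM + 1) scale, against 1.39% higher by as much. Of the 5 Hedgehog genes, 0 reached a difference of 1 in either direction. Gli2 was the lowest of them, and 13.6% of all genes were as low or lower. For Boc this share was 15.4%, for Gas1 16.8%, for Cdon 37.9% and for Gli3 45.4%, so none of the 5 stood at the edge of the distribution.

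Across the 25 libraries the 5 genes did not vary together. Pearson's r of log2(TPM + 1) between pairs of them lay between -0.19 (Gli2 and Gli3) and 0.28 (Gli2 and Boc). Over genes that averaged 10 TPM or more, the genes most like each one were Dcp1b, Sap30bp and Ankmy2 for Gli2 (r = 0.77, 0.73 and 0.72), Ccdc22, Rnf41 and Ints12 for Gli3 (r = 0.75, 0.73 and 0.73), and Ppp2ca, Gnas and Rac1 for Gas1 (r = 0.85, 0.84 and 0.82). For Boc they were Lonp1, Ppme1 and Trmt1l (r = 0.87, 0.83 and 0.82), and for Cdon they included Actg1 and Trio (r = 0.76 and 0.70). These values are descriptions: the libraries share 2 genotypes and differ in the number of genes detected, and each r is among the highest of many correlations.

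Most other pathway genes in the cortex were also lower on average in null libraries. The median difference was -0.48 both for 8 ligand release genes and for 22 transduction genes that averaged 1 TPM or more, against -0.22 over all genes. Of the ligand release genes, 2 were lower in null by at least 1, as were 8.14% of all genes: Gpc6, a heparan sulfate proteoglycan core protein, with medians of 7.35 TPM in null and 14.1 TPM in wild-type libraries and a difference of -1.60, and the related Gpc4, with medians of 21 TPM in null and 75.1 TPM in wild-type libraries and a difference of -1.34. Of the 22 transduction genes, 3 were lower by at least 1. Among them Efcab7, which anchors the Evc complex at the ciliary base, reached 1 TPM in 1 of 13 null and 9 of 12 wild-type libraries (a difference of -2.39), and Evc, a partner of Evc2, had medians of 2.16 TPM in null and 12.6 TPM in wild-type libraries (a difference of -1.77). Kif7, a kinesin that organises Gli proteins in the cilium, was level, with a difference of 0.08.

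Of 30 ciliary genes, 0 differed by 1 or more. Tmem67 and Ift140 had the lowest values among those named by rule, with differences of -0.94 and -0.88, and Bbs4 and Tctn1 the highest, with 0.76 and 0.58. Of 7 genes restricted by Hedgehog signalling that averaged 1 TPM or more, 1 was lower by at least 1, Msx2, a homeobox gene of the dorsal midline, with medians of 2.26 TPM in null and 6.59 TPM in wild-type libraries and a difference of -1.28. Msx1 differed by -0.69 and Zic1 by 0.06. Of 11 other response genes 0 differed by 1 or more, with differences of -0.81 for Sall1, -0.73 for Rab34 and 0.26 for Cdc25b. Of the pallium markers, which fit the labelled tissue, all 10 averaged 1 TPM or more, with a summed level of 305 to 783 TPM in null and 433 to 839 TPM in wild-type libraries. Globin and other blood markers summed to between 603 and 19333 TPM in null and between 253 and 15330 TPM in wild-type libraries. All 8 mesenchyme markers that averaged 1 TPM or more were lower on average in null, with sums of 40.1 to 308 TPM in null and 51.5 to 354 TPM in wild-type libraries. Of 8 endothelium markers, 6 were lower on average in null, among them Kdr with a difference of -1.57 and Sox17 with -1.31, and their sums were 5.15 to 90.1 TPM in null and 17.5 to 96.6 TPM in wild-type libraries. Most genes were lower on average in null, with a median difference of -0.22 over all genes. The medians were -0.46 for the mesenchyme and -0.31 for the endothelium markers. The part of blood, mesenchyme and endothelium cells in the differences between genotypes was not tested.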

How the data were processed

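RNA-seq of dorsal and ventral diencephalon and Smart-seq2 of Axin2-null and wild-type medial cortex were used as the authors deposited them. The submitters' processing notes name the tools Trimmomatic, featureCounts and STAR 2.7.0a and the builds mm10 and GRCm38; which step made which table is not given in the sources used here. The deposited bulk table is named TPM, but column totals run from 17604411 to 20838226, so its values were treated as estimated counts and rounded to whole numbers. The deposited Smart-seq2 table holds TPM, each column summing to about 1000000.

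Bulk counts were tested with edgeR 4.0.16 (TMM scaling, quasi-likelihood F test) in R 4.3.3, over 14701 genes averaging 1 CPM or more, with Benjamini-Hochberg adjustment at 0.05. The alternatives were DESeq2 1.42.0, limma 3.58.1 on log2(CPM + 1), other scalings and minimums, a replicate block and leaving out each library. The script was tested on simulated data. Bulk TPM was computed from the counts and GENCODE M21 exon lengths (GRCm38). Smart-seq2 columns name a genotype by letter but not a numbered sample, and were taken as unnumbered libraries of that genotype. A gene was detected at 1 TPM or more, and intervals are exact Clopper-Pearson. No pair of replicates agreed within sampling noise (chi-square per gene of 7.95 or more in bulk).

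The 9 genes and all lists were chosen with earlier results of these data known. Named from each list were up to 4 genes per direction with the largest fold change among those past the threshold (bulk), or the 2 with the highest means where none passed, and up to 2 per direction with the largest difference (Smart-seq2, among genes detected in 50% or more of the higher genotype's libraries). Kif7, Sufu, Ccnd1, Hes1, Foxa2, Ihh and Dhh in bulk were named after their values were seen. Values of a few genes that these rules name are not reported here.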

Additional observations from a re-analysis of the deposited data

How the results depend on the processing

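Of the 9 Hedgehog genes, 5 were called toward dorsal in every setting tried, and 1 was higher in ventral (Shh) except where Hhip passed as well (2 with DESeq2, with limma and without ventral library 3) and where a minimum of 5 CPM removed Shh (0). Hhip had a log2 fold change of -2.08 with DESeq2 and -1.22 with limma, and of -2.38 to -1.79 with 1 library left out. On the log2(CPM + 1) scale of limma, which understates changes of low genes, Gli2 was at 3.93 and Shh at -2.77. With 1 library left out, 498 to 1695 genes were higher in dorsal (1050 with all 6) and 843 to 1928 in ventral (1403 with all 6), Ift27 ran from -0.38 to 0.070, and the log2 ratio of Gli1 to Gli3 ran from -1.22 to 1.12 and that of Boc to Cdon from -0.55 to 0.18. The Gli1 to Gli3 ratio was 1.33 with 0.1 counts added; the cause of these shifts was not tested. Deviations of same-numbered dorsal and ventral libraries correlated at 0.0992, 0.148 and 0.165, and dorsal library 2 was closer to ventral library 1 (0.187), so the numbers were not taken as pairs. With the replicate number as a block, 924 genes were called toward dorsal and 1083 toward ventral, among them 5 and 1 of the 9 Hedgehog genes, and Scube1, Evc2, Prkar1a and Irx3 no longer passed (adjusted p = 0.0517, 0.0861, 0.0557 and 0.0965). In the Smart-seq2 libraries 190 genes were higher and 1113 lower in null by at least 1; these counts were 766 and 3038 with a pseudocount of 0.1 TPM, 14 and 31 with 10 TPM, and 427 and 1699 over medians. Within numbers 1 to 7, a division added after the data were seen, 846 were higher and 1500 lower, and within numbers 8 and above 412 were higher and 2861 lower. Named genes of the related lists lost their call in 36 combinations of gene and setting.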

Other observations

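Several genes linked to Hedgehog patterning are reported here as values, chosen after their values were seen. Olig2, a progenitor factor induced at moderate signal, had 8.47, 10.9 and 7.49 CPM in dorsal libraries, against 14.9, 13.7 and 17.2 CPM in ventral libraries. The regions did not overlap, and the adjusted p was 0.113 (edgeR's quasi-likelihood test). Nkx6-2, another ventral progenitor factor, had 0.141, 0.674 and 0.681 CPM in dorsal libraries, against 1.38, 1.25 and 2.45 CPM in ventral libraries (adjusted p = 0.182 in the same test). Foxa1, a factor that acts with Foxa2 in the ventral midline, ran the other way, with 8.71, 9.19 and 5.0 CPM in dorsal libraries, against 1.78, 1.25 and 5.02 CPM in ventral libraries, and the regions overlapped (adjusted p = 0.140).

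Pax7, which marks dorsal progenitors, had 0.989, 1.01 and 2.33 CPM in dorsal libraries, against 0, 0.108 and 0 CPM in ventral libraries, and was too low to be tested. Ndst1, which modifies heparan sulfate, averaged 65.5 ± 28 CPM in dorsal libraries, against 30.5 ± 4.77 CPM in ventral ones (SD, n = 3 each), without overlap and with an adjusted p of 0.0634 in edgeR's quasi-likelihood test. Ift140, a ciliary transport gene, had 33.8, 33.7 and 25 CPM in dorsal libraries, against 22.5, 20.5 and 0 CPM in ventral libraries, so that ventral library 3 alone lacked counts of a gene present in the other 5.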
